A study of Mus musculus with 2 samples.

Results

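The 9644 tumour cells described here were the barcodes of 1 single-cell RNA library that held at least 1000 genes and at most 15% mitochondrially encoded transcripts, out of 15961 barcodes in all. They were divided by a feature that the gene counts did not set, namely whether the same barcode was listed in the hashtag library of the same run. Of the 9644 cells, 3374 (34.99%, exact Clopper-Pearson 95% interval 34.0 to 35.9%) were listed and 6270 were not. The other 6317 barcodes had too few genes, and 13.1% of them were listed.

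The cells were B16F10, a mouse melanoma line, recovered from 3 sources, namely lung tumours of wild-type (WT) hosts, lung tumours of hosts without perforin (Prf1-/-) and the knee bones of Prf1-/- hosts. Perforin is the protein with which cytotoxic lymphocytes pierce their targets. Digestion at 37 °C took 20 min for lung and 30 min for knee, so time and site went together. Sorting then kept live cells that carried GFP and lacked the leukocyte protein CD45. Each source was then marked with 1 of 3 oligonucleotide-conjugated antibodies (TotalSeq-B hashtags), and the sources were pooled for 1 run. How many mice each source pooled is not stated in the labels. An unlisted cell has no known source, so it can come from any of the 3.

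A hashtag is an antibody that carries a DNA barcode and binds a protein on the cell surface, so the number of hashtag molecules on a cell depends on how much of that protein the cell displays. Commercial hashtag reagents for mouse cells of this kind are generally mixtures of antibodies to major histocompatibility complex (MHC) class I and to CD45. The labels do not name the antibody clones, and the sort removed CD45-positive cells. An MHC class I molecule is a heavy chain, such as those encoded by H2-K1 and H2-D1, paired with beta-2-microglobulin, encoded by B2m. It presents peptides that are cut by the proteasome, carried into the endoplasmic reticulum by the Tap transporter and loaded with the help of tapasin. B16F10 cells are known for low surface class I that rises with interferon-gamma.

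The promoters of the class I genes that the comparison turns on are shown here with that of Isg15, an interferon-induced gene that went the other way between the 2 sides. Each is the 250 bases before the RefSeq start (GRCm38.p6, 5′ to 3′ along the gene's strand), in lower case. Capitals mark letters of AANNGAAA, the core that interferon regulatory factors bind, or of the NF-kB consensus, on either strand.
B2m: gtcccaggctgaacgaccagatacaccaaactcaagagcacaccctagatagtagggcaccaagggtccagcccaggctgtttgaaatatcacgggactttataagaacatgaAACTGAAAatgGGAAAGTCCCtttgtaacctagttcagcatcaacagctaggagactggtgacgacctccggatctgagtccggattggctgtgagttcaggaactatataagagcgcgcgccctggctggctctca
H2-K1: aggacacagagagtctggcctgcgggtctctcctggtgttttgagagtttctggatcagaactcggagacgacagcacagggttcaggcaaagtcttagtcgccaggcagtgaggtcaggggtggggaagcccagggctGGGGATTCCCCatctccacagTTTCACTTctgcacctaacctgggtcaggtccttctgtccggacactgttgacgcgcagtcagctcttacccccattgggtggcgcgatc
H2-D1: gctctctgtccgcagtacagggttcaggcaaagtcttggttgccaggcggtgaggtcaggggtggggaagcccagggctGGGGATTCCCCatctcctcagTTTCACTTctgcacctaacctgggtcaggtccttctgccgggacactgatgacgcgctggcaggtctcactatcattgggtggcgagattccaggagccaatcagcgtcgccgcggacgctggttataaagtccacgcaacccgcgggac
Isg15: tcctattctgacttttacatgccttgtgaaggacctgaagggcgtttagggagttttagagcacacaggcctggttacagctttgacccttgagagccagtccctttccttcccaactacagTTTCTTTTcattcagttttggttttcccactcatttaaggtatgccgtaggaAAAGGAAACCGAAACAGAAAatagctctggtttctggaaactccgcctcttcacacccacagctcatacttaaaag
The B2m stretch lies at chr2:122147437-122147686 on the plus strand and that of H2-D1 at chr17:35262844-35263093 on the plus strand. The H2-K1 stretch, from the first of 2 listed starts, lies at chr17:34000348-34000597 on the minus strand, and that of Isg15 at chr4:156200819-156201068 on the minus strand. H2-K1 and H2-D1 held the NF-kB consensus next to 1 AANNGAAA match, B2m held both as well, and Isg15 held 4 AANNGAAA matches and no NF-kB consensus. Over all 32851 promoter windows of the table, which run from 250 bases before the start to 50 after it, 23.9% held AANNGAAA and 8.46% the NF-kB consensus, on either strand. In such windows, AANNGAAA was held by 5 and the NF-kB consensus by 4 of 8 genes named further on as higher. Of 9 genes named as lower, 2 and 0 held them. Psmb8 and Psmb9, both named as higher, held neither, and a link of motif and direction was not tested. A match describes letters and is not a measured binding site.

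The library was 1 pool with no replicate, so no test was possible and no p-value is given. Expression is given as CPM, the unique molecular identifiers (UMIs) of a gene summed over the cells of a side and divided by all UMIs of that side, times 1000000. The listed side had 10866737 UMIs and the unlisted side 16458141. Ratios are listed over unlisted, with exact conditional binomial 95% intervals that cover counting error only, not the variation of animals or cells. A gene was tested for size where its mean over the 2 sides was at least 20 CPM, which 5710 genes met, and was counted as higher or lower past 1.2-fold or 1.5-fold.

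Listing went with depth. The median listed cell had 2931 UMIs and 1430.5 genes, and the median unlisted cell had 2418 UMIs and 1251.5 genes. The share listed was 23.7% among cells with 1000 to 1250 genes (968 of 4087), 35.3% at 1250 to 1500 genes, 46.1% at 1500 to 2000 genes and 72.6% (68.7 to 76.4%) at 2000 or more (393 of 541). For this reason each comparison was repeated with the unlisted cells reweighted to the UMI distribution of the listed cells in 10 bins, called depth-standardised here. Transcripts of ribosomal protein genes made up 22.1% of listed and 22.3% of unlisted UMIs, and mitochondrially encoded transcripts 2.50% and 2.31%.

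The hashtag library listed no barcode below 503 hashtag counts. Listed cells had a median of 879 counts and a maximum of 14689. Of the listed cells, 1239 were called WT lung, 1390 Prf1-/- lung and 408 Prf1-/- bone, 324 carried more than 1 hashtag and 13 were negative. Both sides carried the melanoma markers, with a summed level of 14479 CPM in listed and 13596 CPM in unlisted cells. Most markers of other cell types were low on both sides, at 0.184 and 0.122 CPM for T and NK cells and 10.6 and 7.60 CPM for monocytes, macrophages and dendritic cells. Ptprc, which encodes CD45, had 0 UMIs in listed cells and 2 in unlisted cells, so a second protein of such reagents was at the floor of detection on both sides (3 UMIs equal 0.276 and 0.182 CPM).

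Surface class I genes were higher in the listed cells. The summed level of the MHC class I chain genes was 2140 CPM in listed cells, against 1459 CPM in unlisted cells, a ratio of 1.47. Depth-standardising lowered the unlisted level to 1362 CPM and raised the ratio to 1.57. Of 24 chain genes in the matrix, 5 reached the level for a count, and 4 of these were past 1.2-fold higher and none lower, where 1.66% of all tested genes were past 1.2-fold higher and 1.45% lower. The median log2 ratio of the 5 was 0.50, against -0.0064 for all tested genes.

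H2-K1 (ENSMUSG00000061232), the heavy chain H-2K, stood at 208.5 CPM in unlisted cells and at 403 CPM, 332 CPM and 473 CPM in listed cells from WT lungs, from Prf1-/- lungs and from Prf1-/- bones. Over all listed cells the level was 381 CPM, 1.83 times the unlisted level (1.75 to 1.91), and no hashtag source came down to it. H2-D1, the heavy chain H-2D, stood at 407 CPM in unlisted cells and at 641, 537 and 718 CPM in the same 3 sources, with a ratio of 1.48 (1.43 to 1.53). B2m, the shared light chain, stood at 714 CPM in unlisted cells and at 1069, 983 and 1013 CPM in the sources, with a ratio of 1.41 (1.37 to 1.44). For these 3 genes, and for H2-T22, a non-classical chain with a ratio of 1.43 (1.27 to 1.60), the unlisted level lay below all 3 sources. Among all tested genes 11.3% had an unlisted level below every source, and 0.158% were below every source by 1.2-fold. The make-up of the unlisted side by source is not known.

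**Figure D1:**
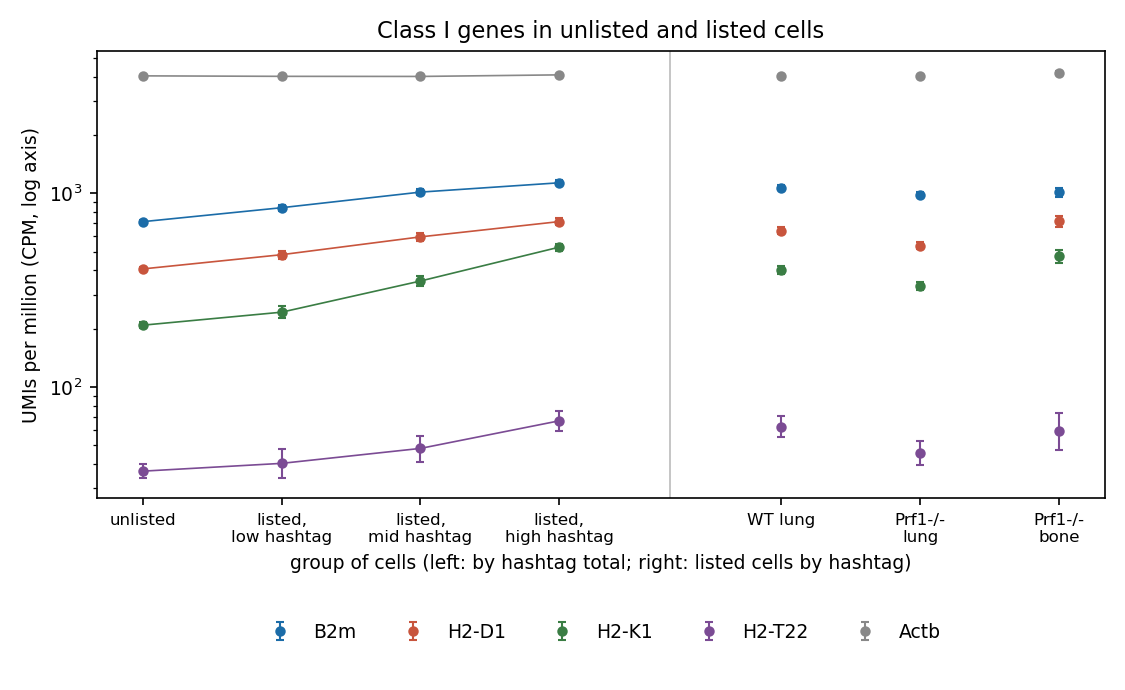
Levels of 4 class I genes and of the cytoskeletal gene Actb, in CPM on a log axis, in unlisted cells, in tertiles of the listed cells by hashtag total (left) and in the listed cells of each hashtag (right). Points are levels of summed UMIs and bars exact Poisson 95% intervals, and the unlisted level of each class I gene lies below those of all 3 sources, while Actb stays near 4044 CPM.

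The other chains were too low for a count. H2-T23, the mouse Qa-1 chain that is read by inhibitory receptors of NK cells, stood at 9.755 CPM in listed and 5.23 CPM in unlisted cells, a ratio of 1.87 (1.39 to 2.51). H2-M3, which presents formylated peptides, stood at 12.5 and 6.93 CPM, a ratio of 1.81 (1.40 to 2.34). The intervals of the class I-like genes all held 1. Hfe, an iron regulator, gave 1.10 (0.879 to 1.38) and 1.32 depth-standardised, Mr1, which presents vitamin metabolites, gave 1.01 (0.747 to 1.37), and Fcgrt, the neonatal Fc receptor chain, gave 1.16 (0.819 to 1.63). Azgp1, a secreted class I-like protein and the fifth gene in the count, gave 0.950 (0.841 to 1.07), and Procr, the protein C receptor, gave 0.816 (0.647 to 1.03). Cd1d1, which presents lipids, had 5 UMIs in listed and 15 in unlisted cells, a ratio of 0.505 (0.144 to 1.46). The H2-Q genes H2-Q4, H2-Q6, H2-Q7 and H2-Q10 had 0 to 3 UMIs on each side. Reads of near-identical H2 genes can be split or lost in counting, so values of single H2 genes are uncertain.

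The class I difference was present at every depth. Over 5 bins of UMIs per cell, from the shallowest to the deepest, the ratio of the summed chain level was 1.68, 1.62, 1.63, 1.45 and 1.54. In the shallowest bin the median listed cell had 2025 UMIs and the median unlisted cell 1994.5, and H2-K1 stood at 497 CPM in 673 listed and 231 CPM in 2452 unlisted cells. From that bin to the deepest, the summed level went from 2731 to 1816 CPM in listed and from 1626 to 1182 CPM in unlisted cells.

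The same relation was read in the other direction, as the share of cells listed at each class I level. Every cell was thinned to 1500 UMIs, which left out 1 listed and 6 unlisted cells. The mean of class I chain UMIs in a thinned cell was 3.40 ± 2.77 (SD over 3373 cells) in listed and 2.25 ± 2.09 (SD over 6264 cells) in unlisted cells, so single cells of the 2 sides overlapped widely. No class I UMI was seen in 9.69% of listed and 18.6% of unlisted cells. Of the cells with none, 21.9% were listed (19.9 to 24.1%). The share was 27.0% at 1 UMI, 33.2% at 2, 34.4% at 3, 44.5% at 4 to 5, 56.4% at 6 to 8 and 66.8% (60.8 to 72.4%) at 9 or more. Without thinning, 15.2% of cells with no class I UMI were listed.

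Thinning does not remove the depth that a cell had before, so the cells were also divided by their UMIs into tertiles. In the shallow tertile the share listed went from 9.23% at 0 class I UMIs to 56.9% at 9 or more, in the middle tertile from 17.4% to 69.8%, and in the deep tertile from 38.3% to 78.3%. Actb, an abundant gene of no such role, gave no such slope. With Actb, 35.1% of cells were listed at 0 to 3 UMIs, 35.7% at 4 to 6 and 34.2% at 7 or more. Its mean after thinning was nearly the same in listed (6.04 UMIs) and unlisted cells (6.08 UMIs). A flat share largely follows from such equal means, so Actb is no separate control for the class I slope.

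**Figure D2:**
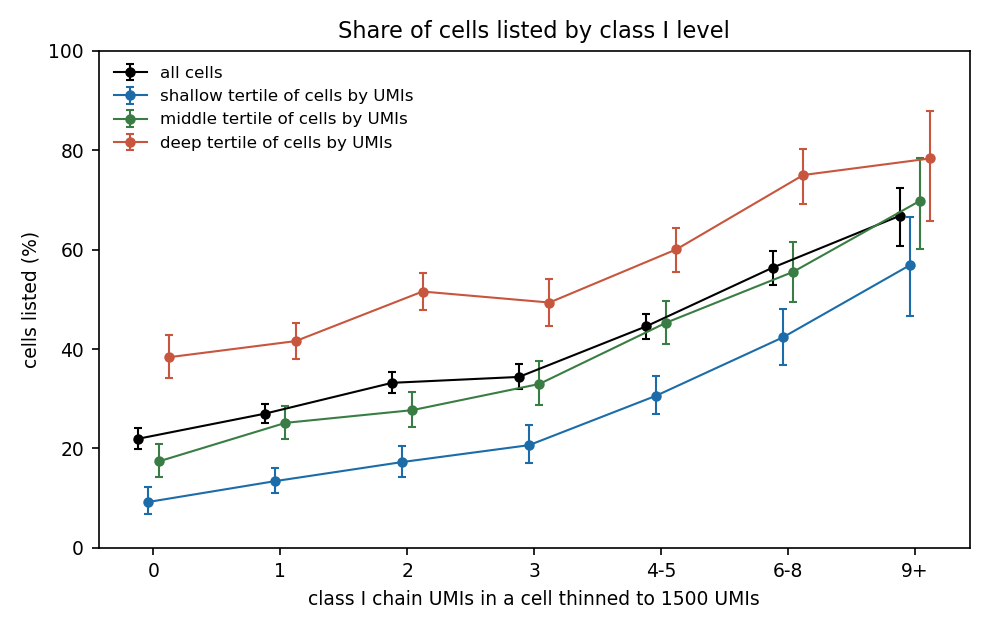
Percent of cells listed, against the number of class I chain UMIs in the cell after thinning to 1500 UMIs, for all cells and for tertiles of the cells by their original UMIs. Bars are exact Clopper-Pearson 95% intervals, and the share listed is higher at 9 or more UMIs than at 0 in each tertile of depth.

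Within the listed cells, class I transcripts also went with the amount of hashtag. The listed cells were divided into tertiles by hashtag total, of 1134, 1116 and 1124 cells, with totals of 503 to 709, 710 to 1153 and 1155 to 14689 counts and median UMIs of 2792, 2893.5 and 3144.5. The summed class I level was 1702 CPM in the lowest tertile, 2105 CPM in the middle and 2555 CPM in the highest, so the lowest tertile lay between the unlisted level and the rest. With the depth of the tertiles standardised the levels were 1646, 2088 and 2647 CPM. H2-K1 stood at 243 CPM, 353 CPM and 527 CPM in the 3 tertiles, H2-D1 at 482, 596 and 715 CPM, and B2m at 843, 1015 and 1134 CPM. The genes past 1.2-fold between the highest and the lowest tertile were 6.18% of all tested genes in the higher direction and 6.11% in the lower, and those past 1.5-fold were 0.385% and 0.28%.

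Hashtag amount differed by source, with the highest median total in Prf1-/- lung (1056.5 counts) and the lowest in Prf1-/- bone (684.5 counts). The median of WT lung lay between them, at 761 counts. Each source had its own antibody as well as its own host and site, and the reason for the difference was not tested. The tertiles were therefore also taken within each source. In WT lung the summed class I level was 1702, 2129 and 2930 CPM from the lowest to the highest tertile. In Prf1-/- lung it was 1511, 1934 and 2486 CPM, and in Prf1-/- bone 1844, 2236 and 3021 CPM. The order was the same in all 3 sources. The median UMI count rose less over the same tertiles, from 2761.5 to 3013 in WT lung, 2629.5 to 2953 in Prf1-/- lung and 3030 to 3107 in Prf1-/- bone.

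The genes that make class I peptides and load them were divided. Of 12 tested members, 7 were past 1.2-fold higher in listed cells and none lower, against 1.66% and 1.45% of all tested genes, with a median log2 ratio of 0.28 (0.36 depth-standardised). Psmb8, an immunoproteasome subunit that interferon induces, stood at 67.1 CPM in unlisted cells and at 152, 77.5 and 266 CPM in the sources in the same order, with an overall ratio of 1.98 (1.83 to 2.15). Psmb9, another such subunit, gave a ratio of 1.68 (1.48 to 1.90), but its unlisted level of 29.0 CPM lay within the sources, at 52.9, 28.6 and 105 CPM. Psmb10, the remaining immunoproteasome catalytic subunit, gave 1.29 (1.21 to 1.38). Tap1, a subunit of the peptide transporter, gave 1.45 (1.27 to 1.65), and Tapbp, which encodes tapasin, gave 1.31 (1.16 to 1.49). The general chaperones of the same compartment did not share this, with ratios of 1.01 for Calr, 0.993 for Canx and 0.929 for Pdia3. The list depended on the source: against the unlisted cells its median was 0.54 in WT lung and 0.44 in Prf1-/- bone but 0.055 in Prf1-/- lung, where Psmb9 and Psmb10 gave ratios of 0.983 and 0.954. The summed class I chain level, by contrast, gave 1.56, 1.63 and 1.37 in the same order.

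Genes of other surface proteins lay nearer to the bulk of genes. Of 36 tested, 1 was past 1.2-fold higher and 1 lower, against 1.66% and 1.45% of all tested genes, with a median log2 ratio of 0.067. Depth-standardised, 4 were higher and 1 lower, against 5.29% and 5.08% of all tested genes, with a median of 0.13 and 29 of 36 ratios above 1. The higher gene was App, the amyloid precursor, at 33.8 and 25.5 CPM, a ratio of 1.33 (1.15 to 1.53), and its level differed widely by source, at 38.4 CPM in WT lung, 36.0 CPM in Prf1-/- lung and 8.78 CPM in Prf1-/- bone. The lower gene was Slc7a5, described further on. Among the abundant members, the tetraspanin gene Cd63 stood at 2031 CPM in listed and 2388 CPM in unlisted cells, a ratio of 0.851 (0.837 to 0.865). Bsg, a partner of lactate transporters, gave 1.09 (1.05 to 1.12), and Gpnmb, a melanosomal glycoprotein, gave 1.01 (0.988 to 1.03).

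**Figure D3:**
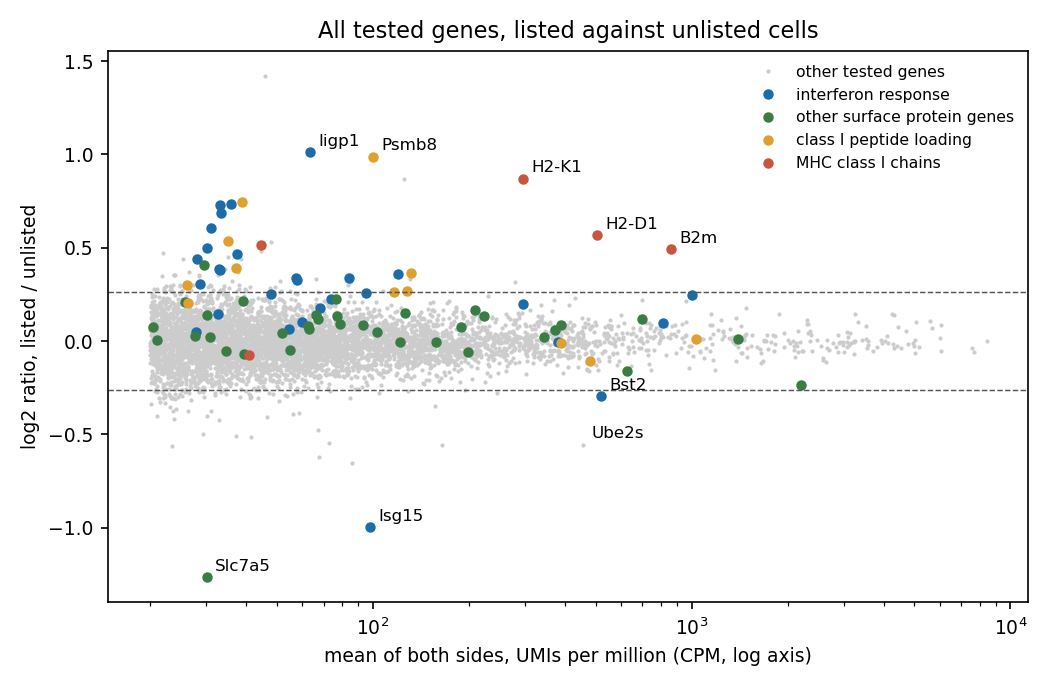
Log2 ratio of listed over unlisted cells against the mean level of both sides in CPM (log axis), for the tested genes, with 4 gene lists in colour. Dashed lines mark 1.2-fold, and H2-K1, H2-D1 and B2m stand above the grey points of like abundance.

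Interferon response genes were mostly higher in listed cells, but not all. Of 29 tested, 15 were past 1.2-fold higher and 2 lower, against 1.66% and 1.45% of all tested genes, with a median log2 ratio of 0.30 (0.29 depth-standardised). Iigp1, an immunity-related GTPase, stood at 41.9 CPM in unlisted cells and at 110, 53.5 and 126 CPM in the 3 sources, a ratio of 2.02 (1.83 to 2.23). The guanylate-binding protein gene Gbp2 gave 1.66 (1.46 to 1.90) and the nucleic acid sensor gene Zbp1 gave 1.66 (1.45 to 1.90). Igtp, another immunity-related GTPase, gave 1.61 (1.40 to 1.84). The abundant members moved less, with ratios of 1.19 for Ifitm3 and 1.07 for Ifi27, and Ifitm2 gave 0.996. Here too the source mattered, with medians of 0.54 in WT lung, 0.22 in Prf1-/- bone and 0.028 in Prf1-/- lung against the unlisted cells.

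The 2 lower members were Isg15 and Bst2. Isg15, a ubiquitin-like protein, stood at 130.3 CPM in unlisted cells and at 81.7, 54.7 and 50.5 CPM in the sources, a ratio of 0.501 (0.459 to 0.545). Bst2, which encodes tetherin, a membrane protein that holds budding virus, stood at 572 CPM in unlisted cells and at 519, 405 and 494 CPM in the sources, a ratio of 0.814 (0.787 to 0.843). For both genes the unlisted level lay above every source, as it did for 17.5% of all tested genes, and for 0.263% by 1.2-fold.

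The MHC class II genes were below the level for a count. Cd74, the invariant chain, had 301 UMIs in listed and 177 in unlisted cells, or 27.7 and 10.8 CPM, a ratio of 2.58 (2.13 to 3.12). H2-Aa gave 11.9 and 4.44 CPM, a ratio of 2.68 (1.99 to 3.62). Both climbed over the hashtag tertiles, Cd74 from 10.2 to 19.0 and 50.8 CPM. Markers of monocytes, macrophages and dendritic cells stood at 10.6 CPM summed in listed and 7.60 CPM in unlisted cells, with Csf1r, Adgre1, Itgax and Flt3 at 0 on both sides. One of them, the lysozyme gene Lyz2, moved the same way, at 7.73 and 3.10 CPM on the 2 sides and at 2.63, 2.83 and 16.6 CPM over the tertiles, and Sftpc climbed as well. The part of such cells in the class II levels was not tested.

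Across all 5710 tested genes, 11 were past 1.5-fold higher in listed cells (0.193%) and 4 lower (0.0701%), and past 1.2-fold 95 were higher and 83 lower. Depth-standardised, 302 (5.29%) were past 1.2-fold higher and 290 (5.08%) lower, and 19 (0.333%) were past 1.5-fold higher and 11 (0.193%) lower. Genes were named where the interval lay wholly beyond 1.2-fold. The ratio also had to stay beyond 1.2-fold after depth-standardising and without the cell of each side with the most UMIs of that gene. This left 20 higher and 11 lower genes, of which the 12 most extreme higher ones are named. Of these 12, 9 belonged to the class I, peptide loading or interferon lists, which held 5, 12 and 29 of the 5710 tested genes. The remaining named genes were Ccl5, Apol9b and Sftpc. The lists were chosen with earlier results of these data known.

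Ccl5, a chemokine that draws T cells, stood at 88.3 CPM in unlisted cells and at 170, 196 and 49.0 CPM in the sources, a ratio of 1.83 (1.70 to 1.96). Apol9b, an apolipoprotein L gene, gave 1.64 (1.43 to 1.88), and Ifi203, an interferon-inducible gene, gave 1.52 (1.32 to 1.75). Sftpc encodes a surfactant protein of alveolar epithelium and gave 2.68 (2.37 to 3.03). It stood at 24.9 CPM in unlisted cells and at 98.3, 10.8 and 13.9 CPM in the sources, so both Prf1-/- sources lay below the unlisted level. The summed lung epithelial markers stood at 81.0 CPM in listed and 30.6 CPM in unlisted cells, with Epcam and Scgb3a2 at 0 on both sides. In listed cells 7 held 2 or more of these UMIs and 1 cell held 36.6% of them, in unlisted cells 5 and 45.8%. Cells with 2 or more UMIs in sum of these and of immune, blood and mesothelial markers were left out in 1 alternative. There, 120 of 121 named genes stayed within their counting interval and 1 moved.

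The 11 named lower genes were of several kinds. Slc7a5, the light chain of a large neutral amino acid transporter, stood at 42.5 CPM in unlisted cells and at 20.5, 14.4 and 18.3 CPM in the sources, the lowest ratio of the set at 0.416 (0.353 to 0.489). Its partner Slc3a2 stood at 195 CPM in listed and 203 CPM in unlisted cells, a ratio of 0.961. Ube2s, an E2 enzyme that extends ubiquitin chains for the anaphase-promoting complex, stood at 542 CPM in unlisted cells and at 377, 373 and 348 CPM in the sources, a ratio of 0.681 (0.656 to 0.707). Plk1, a mitotic kinase, gave 0.702 (0.615 to 0.801), and Snrpd3, a core protein of spliceosomal particles, gave 0.680 (0.638 to 0.723). Ptbp1, a splicing repressor, gave 0.686 (0.624 to 0.753), and Trib3, a stress-induced pseudokinase, gave 0.677 (0.571 to 0.799). Cmtm7 gave 0.637, Plekho1 0.651, Ift122 0.702 and Gstp1 0.709. All 11 had an unlisted level above every hashtag source, against 17.5% of all tested genes. Their choice as lower in the pooled listed cells favours this. Of the 12 named higher genes, 8 had an unlisted level below every source, against 11.3% of all tested genes. The choice of these 12 as higher in the pooled listed cells favours this as well.

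The higher and the lower genes differed in how they ran within the listed cells. The ratio that chose them summed the cells of every tertile of hashtag total, so the comparisons share cells and are not independent. All 12 higher genes rose in order over the tertiles, and how many of all tested genes did so was not counted. All 12 were past 1.2-fold higher between the highest and the lowest tertile, against 6.18% of all tested genes. Their ratios ran from 1.43 to 17.0, with a median of 2.21. Sftpc gave the ratio of 17.0. Of the 11 lower genes, 2 were past 1.2-fold higher and 2 lower over the same tertiles, against 6.18% and 6.11% of all tested genes. Their median ratio was 1.04. Ube2s stood at 356, 379 and 371 CPM and Isg15 at 61.1, 66.6 and 67.7 CPM over the tertiles, with 542 and 130.3 CPM in unlisted cells. Slc7a5 and Trib3 fell over the tertiles, with ratios of 0.655 and 0.607.

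**Figure D4:**
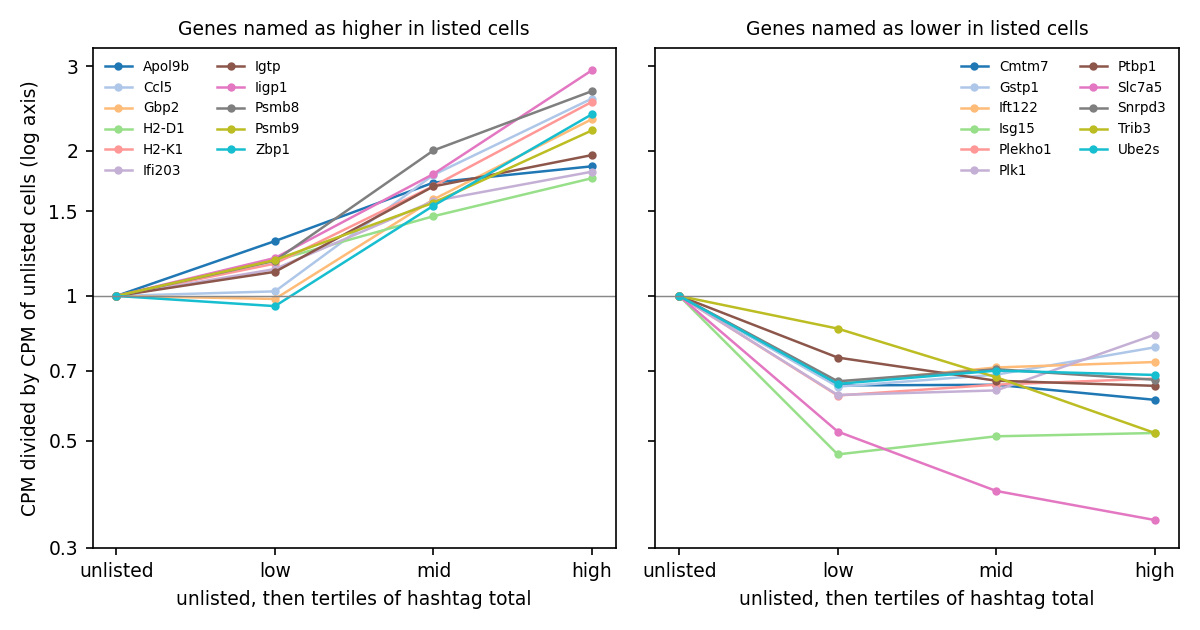
Level of each named gene divided by its level in unlisted cells (log axis), in unlisted cells and in tertiles of the listed cells by hashtag total, for genes named as higher (left, without Sftpc) and lower (right). The higher genes climb over the tertiles, while in the lowest tertile the lower genes already stand at 0.469 to 0.856 of the unlisted level.

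The lowest tertile was also set against the unlisted side. In the lowest tertile of hashtag total, H2-K1 was 1.17 times and Psmb8 1.18 times the unlisted level, Gbp2 0.986 times and Zbp1 0.953 times, and the 12 higher genes ran from 0.387 (Sftpc) to 1.30 (Apol9b). Comparing the lowest tertile with the unlisted side, 2.45% of all tested genes were past 1.2-fold higher and 4.24% lower, and 0% and 0.21% past 1.5-fold. The lower genes were at 0.469 (Isg15) to 0.856 (Trib3) of the unlisted level in that tertile. After thinning, the lower levels of Isg15 and Ube2s in listed cells were read in the other direction, which adds no separate support. The share listed was 36.1% of cells with no Isg15 UMI, 29.8% with 1 and 15.7% with 2 or more, and 39.8% of cells with no Ube2s UMI against 13.4% with 4 or more.

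Proliferation genes were lower in listed cells once depth was matched. Without matching, 3 of 30 tested S phase genes and 2 of 36 G2 and M phase genes were past 1.2-fold lower and none higher, with median log2 ratios of -0.16 and -0.13. Depth-standardised, 23 of 30 and 29 of 36 were past 1.2-fold lower, with medians of -0.32 and -0.39, where 5.08% of all tested genes were. The direction was the same at each depth and the size was not. In the shallowest of the 5 bins the summed S phase level was 960 CPM in listed and 1736 CPM in unlisted cells, a ratio of 0.553 (0.521 to 0.586), and in the deepest bin it was 2855 and 3192 CPM, a ratio of 0.894 (0.866 to 0.924). The G2 and M phase ratio went from 0.675 to 0.898 between the same bins. Both sums were higher in the deepest than in the shallowest bin on both sides.

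**Figure D5:**
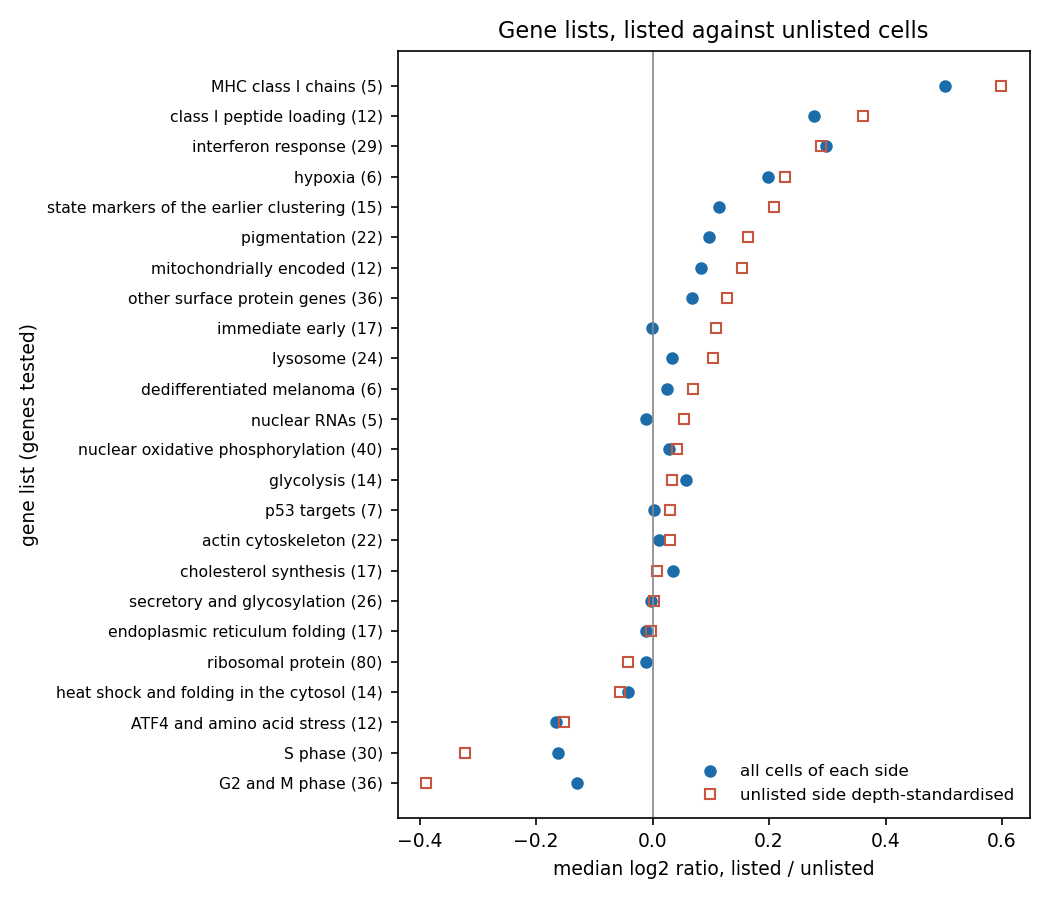
Median log2 ratio of listed over unlisted cells for each gene list with tested members, with all cells of each side (filled circles) and with the unlisted side depth-standardised (open squares). The class I chains lie highest at 0.50 and 0.60, and the S phase and G2 and M phase lists move furthest with depth, to -0.32 and -0.39.

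Most other lists lay near 0. Pigmentation genes, 22 tested, had a median log2 ratio of 0.097 with none past 1.2-fold. Depth-standardised, the median was 0.16, with 4 past 1.2-fold higher, against 5.29% of all tested genes, and all 22 ratios above 1. Pmel, the melanosome fibril protein, gave a ratio of 1.07 and Dct, a melanin enzyme, 1.06. Mitochondrially encoded genes had a median of 0.083. Hypoxia genes lay further from 0, with a median of 0.20 (0.23 depth-standardised) and all 6 tested ratios above 1. Of these 6, 1 was past 1.2-fold higher, against 1.66% of all tested genes. It was Bnip3, at 42.5 and 32.9 CPM, though at 29.3 CPM in WT lung. Of 12 genes of amino acid stress 2 were past 1.2-fold lower, against 1.45% of all tested genes, with a median of -0.17. Ribosomal protein genes, 80 tested, had a median of -0.012, and actin cytoskeleton genes, 22 tested, a median of 0.012. Cck, a peptide hormone gene that marked the bone hashtag, stood at 207 CPM in WT lung, 218 CPM in Prf1-/- lung and 3270 CPM in Prf1-/- bone, and at 684 CPM in unlisted and 687 CPM in listed cells.

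Some markers of stromal cells and blood were higher in the unlisted cells. Summed fibroblast markers stood at 8.47 CPM in listed and 36.5 CPM in unlisted cells, with 9 and 251 UMIs of Col1a1 and 16 and 249 of Col1a2. Osteoblast markers stood at 1.93 and 5.41 CPM and erythroid markers at 0.736 and 7.90 CPM. A single unlisted cell held 46.8% of the fibroblast, 1 held 37.1% of the osteoblast and 1 held 36.2% of the erythroid marker UMIs of that side. Neutrophil markers went the other way, at 5.80 and 0.425 CPM, with 93.7% of the listed UMIs in 1 cell. Of all cells, 16 listed and 22 unlisted cells held 2 or more UMIs in sum of the immune, blood, lung epithelial and mesothelial markers. Without these cells the summed class I ratio was again 1.47. Fibroblast, osteoblast and other bone and vessel markers were not part of this sum, so cells with them were not left out by it.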

How the data were processed

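The authors deposited 1 matrix of gene UMI counts and 1 matrix of hashtag UMI counts, both of called barcodes. Seurat 4.3.0, Cell Ranger 6.1.2 and mm10 are named in the submitters' processing notes, while per the file headers the matrices came from Cell Ranger 6.0.0. The RNA matrix held 35150895 UMIs over 32285 genes. The labels do not say how barcodes were called.

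The cell filter was 1000 or more genes with no more than 15% mitochondrially encoded UMIs. Barcodes were matched by their letters. Sources were assigned by HTODemux (Seurat 5.3.0, R 4.3.3, quantile 0.99), and doublets were kept on the listed side, with singlets alone as an alternative. Within-hashtag doublets are not seen this way. UMIs were summed per side, with no test. Log2 list medians had 1 CPM added to each side. Levels needed a mean of 20 CPM, and interval coverage was tested on simulated data. Alternatives were other cell filters, depth treatments, scalings (edgeR 4.0.16 TMM factors), sources, low-value filters and pseudocounts. Computation used Python 3.11.15 and scipy 1.17.1.

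Genes were named by a rule: up to 12 per direction with the most extreme ratio, an interval wholly beyond 1.2-fold, the same after depth-standardising and without the top cell, leaving out mitochondrial, ribosomal protein and unnamed genes, plus members of the gene and marker lists. The members, lists and rule were chosen with earlier results of these data known. Promoter sequences come from RefSeq, GRCm38.p6, matched by symbol, and 17 of 23 genes named by the 2 directions had one.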

Additional observations from a re-analysis of the deposited data

Results flagged for a closer look

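The hashtag library held 2004 barcodes that were not among the called barcodes of the RNA library, a signal that the comparison of listed and unlisted cells does not use. Their median hashtag total was 671 counts, against 879 in the listed cells, and their range was 504 to 46513. Of them, 1 matched an RNA barcode after complementing bases 8 and 9, the change between the 2 capture sequences of some bead chemistries.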

How the results depend on the processing

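No paired analysis was possible because each library is a single sample and the 2 sides are cells of 1 library. The summed class I ratio stayed above 1 under every alternative run, between 1.17 and 1.76, and the chain, loading and interferon medians stayed at or above 0, while that of the other surface genes, 0.067, was below 0 with Prf1-/- bone alone, with and without depth-standardising. TMM scaling, scaling without mitochondrial and ribosomal protein genes, the 10% mitochondrial limit and a pseudocount of 0.1 CPM moved none of the main values. Nor did leaving out barcodes with immune, blood, lung epithelial or mesothelial markers. Moved meant beyond the counting interval, or for counts beyond 1.5 times. List medians have no counting interval and were judged by the interval width of the list's summed ratio. Alternatives chosen after seeing the data were the lowest hashtag tertile, the nearest source, 20 depth bins and single sources with depth standardised. Values that moved follow, with the numbers of genes past the fold as higher then lower in listed cells; the cause was not tested. Depth-standardising in 10 bins gave 19 and 11 genes past 1.5-fold, 302 and 290 genes past 1.2-fold, list medians (log2) of 0.60 for chains, 0.36 for loading, 0.13 for other surface genes and a summed class I ratio of 1.57. Thinning to 1500 UMIs gave 13 genes past 1.5-fold lower, 198 and 271 genes past 1.2-fold, list medians (log2) of 0.56 for chains, 0.25 for loading and a summed class I ratio of 1.51. Weighting each cell equally gave 8 genes past 1.5-fold lower, 171 genes past 1.2-fold lower, list medians (log2) of 0.53 for chains, 0.35 for interferon and a summed class I ratio of 1.505. A minimum of 500 genes gave 41 genes past 1.2-fold lower, list medians (log2) of 0.43 for chains, 0.031 for other surface genes, 0.28 for interferon, a summed class I ratio of 1.38 and 26.8% listed. A minimum of 1500 genes gave 245 and 233 genes past 1.2-fold, list medians (log2) of 0.47 for chains, 0.21 for interferon and 51.3% listed. Hashtag singlets alone gave list medians (log2) of 0.56 for chains, 0.32 for loading, 0.28 for interferon. Prf1-/- bone alone gave 58 and 217 genes past 1.5-fold, 473 and 1066 genes past 1.2-fold, list medians (log2) of 0.67 for chains, 0.44 for loading, -0.19 for other surface genes, 0.22 for interferon and a summed class I ratio of 1.63. Prf1-/- lung alone gave 5 and 12 genes past 1.5-fold, 263 and 289 genes past 1.2-fold, list medians (log2) of 0.40 for chains, 0.055 for loading, 0.028 for interferon and a summed class I ratio of 1.37. WT lung alone gave 34 and 14 genes past 1.5-fold, 291 and 298 genes past 1.2-fold, list medians (log2) of 0.65 for chains, 0.54 for loading, 0.54 for interferon and a summed class I ratio of 1.56. Weighting the 3 sources equally gave 18 genes past 1.5-fold higher, list medians (log2) of 0.59 for chains, 0.37 for loading, 0.020 for other surface genes and a summed class I ratio of 1.52. The lowest hashtag tertile gave 0 and 12 genes past 1.5-fold, 242 genes past 1.2-fold lower, list medians (log2) of 0.22 for chains, 0.053 for loading, 0.078 for interferon and a summed class I ratio of 1.17. The nearest source set each gene against the source closest to its unlisted level, with a ratio of 1 where that level lay within the sources. This brings counts down and medians toward 0 by construction. The nearest source gave 1 and 2 genes past 1.5-fold, 9 and 15 genes past 1.2-fold, list medians (log2) of 0.40 for chains, 0.0024 for loading, 0 for other surface genes, 0 for interferon and a summed class I ratio of 1.37. Depth-standardising in 20 bins gave 20 and 10 genes past 1.5-fold, 304 and 289 genes past 1.2-fold, list medians (log2) of 0.61 for chains, 0.37 for loading, 0.13 for other surface genes, 0.28 for interferon and a summed class I ratio of 1.58. Prf1-/- bone alone, depth-standardised gave 69 and 173 genes past 1.5-fold, 530 and 978 genes past 1.2-fold, list medians (log2) of 0.78 for chains, 0.56 for loading, -0.092 for other surface genes, 0.22 for interferon and a summed class I ratio of 1.76. Prf1-/- lung alone, depth-standardised gave 22 genes past 1.5-fold lower, 425 and 385 genes past 1.2-fold, list medians (log2) of 0.46 for chains, 0.064 for loading, 0.12 for other surface genes, 0.062 for interferon and a summed class I ratio of 1.43. WT lung alone, depth-standardised gave 46 and 26 genes past 1.5-fold, 490 and 403 genes past 1.2-fold, list medians (log2) of 0.73 for chains, 0.52 for loading, 0.098 for other surface genes, 0.56 for interferon and a summed class I ratio of 1.65. A filter of 50 CPM gave 4 genes past 1.5-fold higher, 22 and 24 genes past 1.2-fold and list medians (log2) of 0.57 for chains, 0.21 for interferon. No low-value filter gave 2538 and 2352 genes past 1.5-fold, 3500 and 3536 genes past 1.2-fold and list medians (log2) of 0.16 for chains, 0.37 for loading, 0.34 for interferon. A pseudocount of 5 CPM gave list medians (log2) of 0.26 for loading, 0.26 for interferon.

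Of 121 named genes, 79 stayed within their counting interval after depth-standardising in 10 bins and 42 moved. None of those past 1.2-fold changed side, while genes nearer to 1 could cross it, as Calr did from 1.01 to 0.985. Among named genes past 1.2-fold, ratios crossed 1 only with part of the listed cells. With Prf1-/- bone alone, the ratios were App 0.345, Ccl5 0.555, Nasp 1.08, S100a4 0.187, S100b 0.824 and Sftpc 0.558. With Prf1-/- lung alone, the ratios were Ifi203 0.953, Psmb10 0.954, Psmb9 0.983 and Sftpc 0.434. With WT lung alone, the ratios were Bnip3 0.892. With the lowest hashtag tertile, the ratios were Gbp2 0.986, S100b 0.999, Sftpc 0.387, Tap1 0.976 and Zbp1 0.953. With Prf1-/- bone alone depth-standardised, they were App 0.409, Ccl5 0.602, S100a4 0.224, S100b 0.966 and Sftpc 0.600. With Prf1-/- lung alone depth-standardised, they were Ifi203 0.998, Psmb10 0.958, Psmb9 0.982 and Sftpc 0.410. With WT lung alone depth-standardised, they were Bnip3 0.909. Depth, at medians of 2931 and 2418 UMIs per cell, limits what single cells show of the low class I genes, among them the H2-Q genes. Why the summed H2-Q counts were so low was not tested.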
